A study of Mus musculus with 30 samples.

Results

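Tumours grown from B2m-mutant MC38 cells were set against tumours grown from Jak1-mutant MC38 cells, both from mice treated with an antibody that blocks PD-1, an inhibitory receptor of T cells (aPD1). The comparison rests on 10 of the 30 libraries of the series, 5 labelled B2mKO aPD1 and 5 labelled Jak1KO aPD1, chosen by their labels. MC38 is a mouse colon carcinoma line, and the cells had been placed under the skin of female C57BL/6 mice aged 6 to 8 weeks. All groups used here shared the injection plan of 100 µg of antibody into a vein on days 7, 10 and 13, and about 50 mg of tumour was frozen on day 14. The B2mKO and Jak1KO libraries from mice given an IgG1 control antibody, 5 each, are used to ask whether the line difference depended on aPD1, and the 5 libraries of unmutated (WT) tumours under aPD1 show where each line stood. The labels do not say whether a mutant line was a single clone, so an effect of the mutated gene and any other difference between the lines cannot be told apart. The mice carried intact B2m and Jak1, and host cells of the tumour add to every value. In these bulk samples, fewer cells of a type and less RNA per cell cannot be told apart. The labels do not state that the libraries came from separate mice, so the spread that p-values measure is that between these samples and may be technical.

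B2m encodes the light chain that MHC class I heavy chains need to reach the cell surface, where they present peptides to CD8 T cells and hold back natural killer (NK) cells. Jak1 encodes a kinase on the receptors of type I interferons and of interferon gamma. There it acts with Tyk2 or another JAK kinase to activate STAT proteins, which switch on interferon-stimulated genes, the class I pathway among them.

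Total counts were 18881630 to 23161312 per library in the B2mKO aPD1 group and 19987329 to 23090261 in the Jak1KO aPD1 group. Levels are CPM, counts scaled to a common library total, and values in a list follow replicates 1 to 5. Differences are log2 fold changes ± SE of B2mKO over Jak1KO. Each adjusted p is that of edgeR's quasi-likelihood test, adjusted by Benjamini-Hochberg over all genes tested, with a threshold of 0.05. The SE was derived from that test, as the absolute log2 fold change over the square root of the F statistic. It is approximate, most of all for genes near 0 counts in a group. Means are given ± SD with n = 5 libraries. A pair of libraries stood apart. B2mKO aPD1 replicate 2 had a median correlation of 0.9548 with the rest of its group, against 0.9795 to 0.9879 for the other 9 libraries. Jak1KO aPD1 replicate 1 summed to 1417 CPM over the skeletal muscle genes, against 19.94 to 158.5 CPM in B2mKO tumours and 31.42 to 111 CPM in the other Jak1KO tumours.

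The targeted genes were lowest in the lines labelled for them. B2m had 621, 963, 561, 809 and 790.0 CPM in B2mKO tumours, 1393, 1183, 1031, 933 and 1708 CPM in Jak1KO tumours and 3584 to 5459 CPM in WT tumours. B2mKO replicate 2 lay above Jak1KO replicate 4, the other values of the lines did not cross, and both lines stood below every WT library. The difference in B2m was -0.74 ± 0.19, adjusted p = 0.0033, and an exact two-sided permutation test of the means over 252 splits gave p = 0.0159. Jak1 had 293, 199, 281, 300.3 and 315 CPM in B2mKO tumours, 81.9, 72.6, 66.5, 64.9 and 76.3 CPM in Jak1KO tumours and 233 to 249 CPM in WT tumours. All Jak1KO libraries stood below all libraries of the other lines. The difference in Jak1 was 1.94 ± 0.10, adjusted p = 1.39e-13, and its exact permutation p of 0.00794 is the smallest that 5 against 5 can give.

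Of 15505 genes tested, 4361 (28.1%) passed the threshold. In B2mKO tumours 2299 (14.8%) were higher and 2062 (13.3%) were lower than in Jak1KO tumours, and the median difference over all genes was -0.00632. The CPM of the 5 B2mKO libraries lay wholly above those of the 5 Jak1KO libraries for 1642 genes (10.6%) and wholly below for 1651 (10.6%). At a difference of at least 1 on the log2 scale, 716 of the genes that passed were higher and 292 were lower. Interferon-stimulated genes, class I heavy chains, granzymes and matrix genes were among those higher in B2mKO tumours, and genes of mitosis and DNA replication were among those lower.

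**Figure D1:**
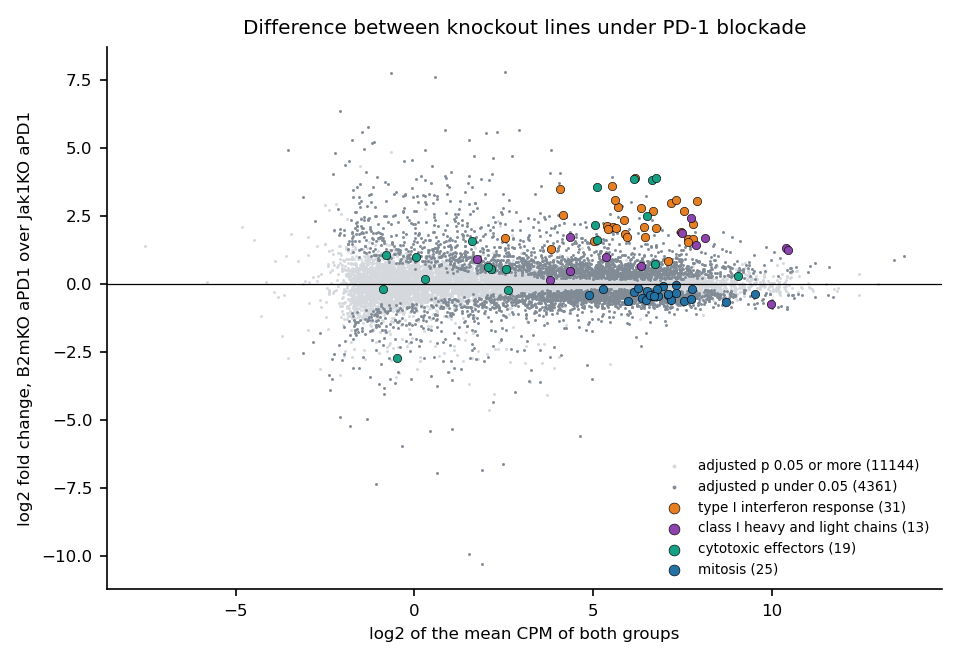
Each point is 1 of 15505 genes, with log2 of the mean CPM of both groups on the x axis and the log2 fold change of B2mKO aPD1 over Jak1KO aPD1 on the y axis and 4 lists in colour. Of all genes, 4361 passed the threshold, and the type I interferon genes lie above 0, between 0.86 and 3.89.

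Interferon-stimulated genes carry short response elements near their start, and a few promoters are printed because all 31 tested genes of the type I interferon list were higher in B2mKO tumours. The interferon-stimulated response element (ISRE), which a complex with STAT2 and IRF9 binds, was searched as GAAA, any 2 bases and GAAA again. The gamma-activated site (GAS), which STAT dimers bind, was searched as TTCNNNGAA. Both strands were searched, and matches of either kind could overlap. The sequences are the 250 bases before each start, 5′ to 3′, from RefSeq on GRCm38.p6, for the targeted gene and for genes with a match in the type I interferon and interferon gamma lists. In the first 3, capitals mark ISRE matches.
B2m promoter, chr2:122147437-122147686, plus strand: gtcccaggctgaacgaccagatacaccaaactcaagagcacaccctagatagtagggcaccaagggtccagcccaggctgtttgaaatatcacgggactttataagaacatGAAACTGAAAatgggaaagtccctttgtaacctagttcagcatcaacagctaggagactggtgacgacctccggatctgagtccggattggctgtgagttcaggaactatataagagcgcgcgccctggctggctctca
Ifit1 promoter, chr19:34640639-34640888, plus strand: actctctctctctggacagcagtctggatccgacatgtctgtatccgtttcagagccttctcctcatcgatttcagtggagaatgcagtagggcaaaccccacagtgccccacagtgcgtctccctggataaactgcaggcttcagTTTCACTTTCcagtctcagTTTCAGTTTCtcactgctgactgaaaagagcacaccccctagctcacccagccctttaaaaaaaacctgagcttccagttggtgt
Ifit3b promoter, chr19:34607707-34607956, plus strand: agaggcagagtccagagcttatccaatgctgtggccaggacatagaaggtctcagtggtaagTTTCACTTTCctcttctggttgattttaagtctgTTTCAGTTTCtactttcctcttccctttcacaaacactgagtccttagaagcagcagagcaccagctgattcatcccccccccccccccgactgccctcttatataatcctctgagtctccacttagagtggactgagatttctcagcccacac
In the other 2, capitals mark GAS matches.
Gbp7 promoter, chr3:142530086-142530335, plus strand: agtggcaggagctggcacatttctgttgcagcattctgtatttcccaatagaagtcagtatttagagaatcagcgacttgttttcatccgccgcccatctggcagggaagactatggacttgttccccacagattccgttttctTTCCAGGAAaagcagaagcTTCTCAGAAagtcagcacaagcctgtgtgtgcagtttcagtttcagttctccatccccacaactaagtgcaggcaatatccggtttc
Irgm2 promoter, chr11:58214727-58214976, plus strand: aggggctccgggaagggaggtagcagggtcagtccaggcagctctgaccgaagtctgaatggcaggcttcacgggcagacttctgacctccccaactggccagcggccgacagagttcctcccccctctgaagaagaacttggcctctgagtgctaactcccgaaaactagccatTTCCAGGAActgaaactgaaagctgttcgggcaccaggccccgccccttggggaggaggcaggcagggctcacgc

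The first ISRE match stood 139 bases before the start of B2m, 104 before that of Ifit1 and 188 before that of Ifit3b. The B2m promoter held 1 ISRE match and 0 GAS matches. Beside their GAS matches, the printed Gbp7 and Irgm2 promoters held 1 ISRE match each, left in lower case. Over windows from 250 bases before to 50 after a start, the ISRE letters were in 3.44% of 32851 windows, and in 53.6% of the 28 windows found for 23 of 32 genes of the type I interferon list. The GAS letters were in 8.3% of all windows and in 14.3% of those of the type I list. Of the 22 windows found for 19 of 30 genes of the interferon gamma list, 50% held the ISRE letters and 50% the GAS letters. Of the 12 windows of class I chains, 25% held the ISRE letters and 8.33% the GAS letters, and of the 12 of loading genes 16.7% and 8.33%. A match describes letters and is not a shown binding site.

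All 31 tested genes of the type I interferon response, of 32 listed, were higher in B2mKO tumours, where 14.8% of all genes were, and in 31 the lines did not overlap. Their median difference was 2.11. Ifit1, which binds foreign RNA, had 287, 278, 137, 297 and 281 CPM in B2mKO tumours, 31.6, 30.9, 38.1, 28.4 and 32.7 CPM in Jak1KO tumours and 143 to 250.3 CPM in WT tumours. B2mKO replicate 3 was the lowest of its line and still above every Jak1KO library (2.98 ± 0.23, adjusted p = 1.46e-10). Ifi44, an interferon-induced protein, had 145, 165, 63.5, 151 and 150.2 CPM in B2mKO tumours and 7.58, 6.78, 13.3, 8.77 and 8.86 CPM in Jak1KO tumours. The same replicate 3 was low, and the gap between the lines was the widest of the list (3.89 ± 0.32, adjusted p = 4.92e-10). Ifih1, the sensor MDA5 for long double-stranded RNA, averaged 138 ± 26.5 CPM in B2mKO tumours, 32.3 ± 2.81 CPM in Jak1KO tumours and 84.5 ± 8.6 CPM in WT tumours (2.10 ± 0.14, adjusted p = 1.33e-11). Herc6, the mouse ligase for the ubiquitin-like ISG15, averaged 68.4 ± 11.8 CPM in B2mKO tumours and 16.9 ± 2.71 CPM in Jak1KO tumours (2.01 ± 0.16). Ifit3b differed by 3.60 ± 0.30, but it is a close copy of a neighbour and reads that fit both were not counted. The list summed to 3012 to 5863 CPM in B2mKO tumours and to 976.4 to 1300 CPM in Jak1KO tumours. Against WT tumours the list's median was 0.64 in B2mKO and -1.58 in Jak1KO, and both values share the WT libraries.

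Among interferon receptors and JAK-STAT genes, 12 of 25 were higher and 1 was lower, with a median of 0.42. Irf9, the DNA-binding partner of STAT2, had 65.3, 85.5, 46.1, 83.9 and 71.6 CPM in B2mKO tumours, 20.2, 15.8, 19.3, 17.2 and 19.4 CPM in Jak1KO tumours and 54 to 79.7 CPM in WT tumours. B2mKO and WT tumours shared a range that no Jak1KO library entered (1.94 ± 0.17, adjusted p = 2.47e-09). Stat2 averaged 193 ± 42.1 CPM in B2mKO tumours and 49.2 ± 6.67 CPM in Jak1KO tumours (1.97 ± 0.20), and Irf7, which amplifies type I interferon production, averaged 279 ± 87.5 CPM in B2mKO tumours and 73.4 ± 17.4 CPM in Jak1KO tumours (1.93 ± 0.26). Usp18, which removes ISG15 and damps the type I receptor, averaged 86.6 ± 38.6 CPM in B2mKO tumours, 10.0 ± 3.2 CPM in Jak1KO tumours and 33.2 ± 4.86 CPM in WT tumours (3.11 ± 0.31). Stat5b, which carries signals of growth hormone and of interleukins, was the lower gene (-0.17 ± 0.06, adjusted p = 0.0441), and this call was lost without B2mKO replicates 2, 3 or 4 or Jak1KO replicates 1, 2, 3, 4 or 5, with adjusted p up to 0.236.

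Of 30 genes of the interferon gamma response, 18 were higher and 0 were lower, with a median of 1.26. Leaving out B2mKO replicate 2, Jak1KO replicate 4 or Jak1KO replicate 2 gave 1, 1 and 2 lower genes. Against WT tumours the list's median was -1.26 in B2mKO and -2.41 in Jak1KO, and both values share the WT libraries. The largest groups among the higher genes were guanylate-binding proteins and immunity-related GTPases, which attack the membranes around intracellular parasites. Gbp3 had 287, 313, 162, 329 and 297 CPM in B2mKO tumours, 54, 20.7, 34.1, 20.9 and 42.1 CPM in Jak1KO tumours and 259 to 458 CPM in WT tumours. All B2mKO libraries stood above all Jak1KO libraries (3.01 ± 0.27, adjusted p = 2.84e-09). Gbp9 was 1.92 ± 0.17 higher, Gbp7 2.02 ± 0.19 and Irgm2 2.34 ± 0.26. Cd274, which encodes the PD-1 ligand and which interferon gamma induces, had 38.9, 45.7, 28.2, 54 and 43.5 CPM in B2mKO tumours, 46.2, 17.1, 25.4, 15.7 and 38 CPM in Jak1KO tumours and 59.4 to 197 CPM in WT tumours. The mutants overlapped (0.56 ± 0.28, adjusted p = 0.144), and without Jak1KO replicate 1 the adjusted p was 0.0402.

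Ifng itself, the cytokine made mainly by T and NK cells, was lower in B2mKO tumours. It had 0.054, 0.245, 0, 0.486 and 0.131 CPM in B2mKO tumours, 3.21, 0.148, 0.92, 0.0484 and 1.87 CPM in Jak1KO tumours and 0.753 to 5.43 CPM in WT tumours. Jak1KO replicates 1, 3 and 5 lay above every B2mKO library and the other 2 within the B2mKO range (-2.73 ± 0.84, adjusted p = 0.0154), and the adjusted p was 0.0822 without Jak1KO replicate 1. None of the 10 MHC class II genes passed, with a median of -0.48, and 1 was lower without Jak1KO replicate 2. Cd74, the invariant chain of class II, had 107, 327, 217, 136 and 48.9 CPM in B2mKO tumours, 1039, 47.4, 146, 86.4 and 536 CPM in Jak1KO tumours and 407 to 3544 CPM in WT tumours. Jak1KO replicates 1 and 5 were high, and the lines overlapped (-1.15 ± 0.71, adjusted p = 0.242). Ciita, the activator of class II genes, averaged 3.43 ± 1.96 CPM in B2mKO tumours, 10.2 ± 10.9 CPM in Jak1KO tumours and 45.9 ± 28.1 CPM in WT tumours (-1.57 ± 0.70, adjusted p = 0.093, and 0.0487 without Jak1KO replicate 2).

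Class I heavy chains and their light chain went opposite ways. Of 13 class I chains, 10 were higher in B2mKO tumours and 1, B2m, was lower, with a median of 1.24. H2-K1, a classical heavy chain, had 2145, 2222, 1375, 2136 and 1615 CPM in B2mKO tumours, 904, 640.0, 680.3, 631 and 947 CPM in Jak1KO tumours and 1794 to 3022 CPM in WT tumours. Every B2mKO library stood above every Jak1KO library (1.32 ± 0.18, adjusted p = 2.65e-06). H2-D1, the other classical heavy chain of this strain, was 1.24 ± 0.20 higher. H2-Q6 averaged 360.0 ± 83.5 CPM in B2mKO tumours and 66 ± 22.4 CPM in Jak1KO tumours (2.45 ± 0.22), and H2-Q7, H2-T10 and H2-Q4 differed by 1.86 ± 0.22, 1.75 ± 0.20 and 1.71 ± 0.16. The H2-Q genes are close copies and reads that fit several were not counted, so their single values are uncertain. Of 14 genes of peptide supply and loading, 13 were higher and 0 were lower, with a median of 0.60. Tap1, a subunit of the peptide transporter, had 219.8, 241, 168, 227 and 207 CPM in B2mKO tumours, 137, 85.3, 105, 84.3 and 121 CPM in Jak1KO tumours and 251 to 455 CPM in WT tumours. The mutants did not overlap (0.99 ± 0.16, adjusted p = 2.01e-05), and both lay below the lowest WT library. Psmb9, an immunoproteasome subunit, was 1.53 ± 0.28 higher, the loading factor Tapbp 0.85 ± 0.13 and the peptide-trimming Erap1 0.54 ± 0.08.

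**Figure D2:**
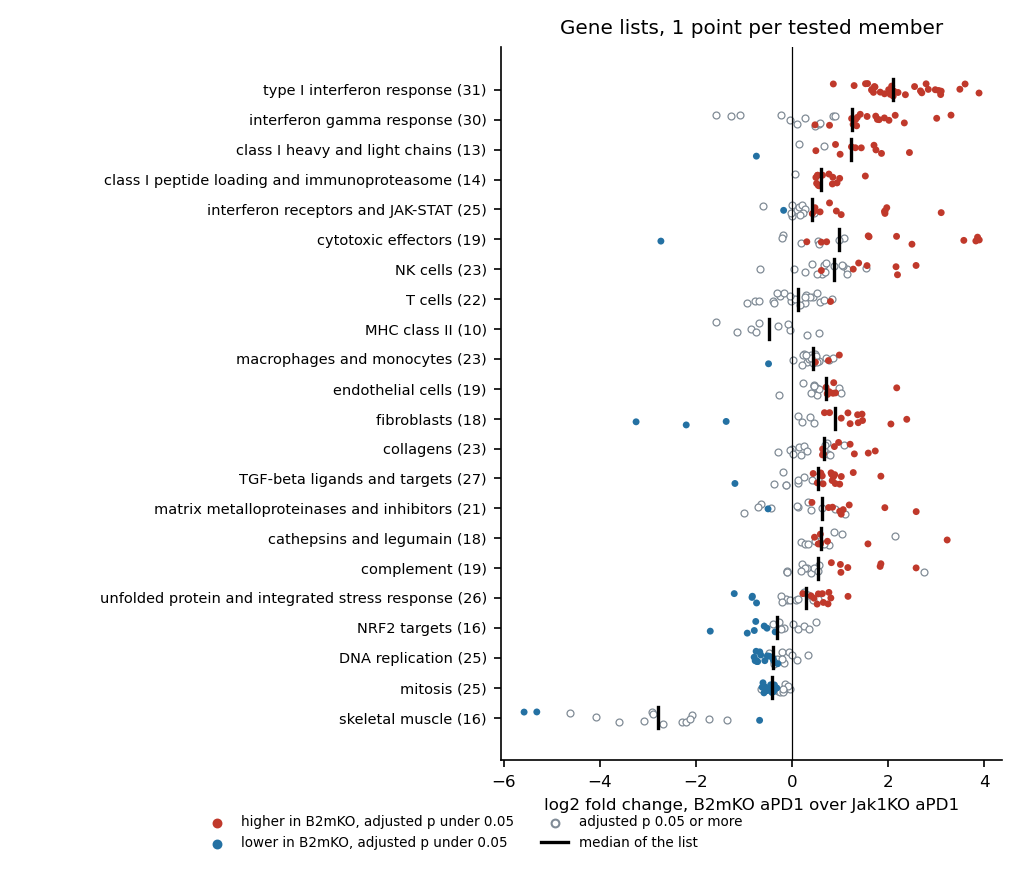
Each point is 1 tested gene of the list named at left, with its log2 fold change of B2mKO aPD1 over Jak1KO aPD1 on the x axis; filled points passed the threshold and vertical strokes are medians. The type I interferon list has its median at 2.11, while T cells lie around 0.12 and mitosis genes around -0.41.

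Many cytotoxic granule genes were higher in B2mKO tumours, but in most of them the lines overlapped. Of 19 cytotoxic effectors, 11 were higher, where 14.8% of all genes were, and 1, Ifng, was lower, with a median of 0.98. In 1 of the 19 the B2mKO libraries lay wholly above the Jak1KO libraries, where 10.6% of all genes did. The list summed to 762.8 to 2635 CPM in B2mKO tumours and to 525.9 to 846.9 CPM in Jak1KO tumours. Gzmd, a granzyme (a serine protease of cytotoxic granules), had 226, 428, 31, 191 and 48.5 CPM in B2mKO tumours, 21.6, 3.51, 4.47, 1.99 and 33.2 CPM in Jak1KO tumours and 15.9 to 31.9 CPM in WT tumours. B2mKO replicates 1, 2 and 4 were far above all others, while replicate 3 lay just under the highest Jak1KO library (3.83 ± 0.78, adjusted p = 0.000485). Gzmf was 3.86 ± 0.83 higher and Gzme 3.58 ± 0.76. These granzymes lie in 1 cluster of close copies on chromosome 14, so their single values are uncertain. Gzmb, the main granzyme of CD8 T and NK cells, had 51.8, 85.6, 12.6, 63.7 and 44.7 CPM in B2mKO tumours and 41.7, 2.92, 10.1, 2.81 and 27.1 CPM in Jak1KO tumours. The lines overlapped (1.61 ± 0.59, adjusted p = 0.042), and the call was lost without B2mKO replicates 1, 2, 4 or 5 or Jak1KO replicates 2, 3 or 4, with adjusted p up to 0.103.

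Of 23 NK cell genes, 7 were higher, where 14.8% of all genes were, and 0 were lower, with a median of 0.89. The higher count was 4 without B2mKO replicate 2, 4 without Jak1KO replicate 2, 4 without Jak1KO replicate 4 and 11 without B2mKO replicate 3. Klrg1, a receptor of mature NK and effector T cells, had 3.84, 8.87, 1.17, 3.55 and 2.49 CPM in B2mKO tumours and 0.899, 0.148, 0.833, 0.291 and 1.09 CPM in Jak1KO tumours. The lines did not overlap, and B2mKO replicate 2 was the highest (2.58 ± 0.57, adjusted p = 0.00109). Klra7 and Klra9, of the Ly49 receptor family that reads class I, were also higher. Klra7 averaged 2.39 ± 1.5 CPM in B2mKO tumours and 0.522 ± 0.325 CPM in Jak1KO tumours, and Klra9 1.06 ± 0.622 CPM in B2mKO tumours and 0.223 ± 0.132 CPM in Jak1KO tumours. Reads that fit several members of this family were not counted, so the single values of Klra7 and Klra9 are uncertain. Eomes, a transcription factor of NK and effector T cells, was 0.61 ± 0.19 higher, a call lost without B2mKO replicate 1 or Jak1KO replicate 2, with adjusted p up to 0.0567. The list summed to 461.1 CPM in B2mKO replicate 2, to 183.4 to 227.7 CPM in the other B2mKO tumours and to 130 to 235.6 CPM in Jak1KO tumours.

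Ligands that NK cells read on other cells were divided. Raet1e, a ligand of the activating receptor NKG2D, had 8.92, 11.6, 6.34, 7.53 and 7.72 CPM in B2mKO tumours, 0.3, 0.495, 0.482, 0.581 and 0.695 CPM in Jak1KO tumours and 5.46 to 9.55 CPM in WT tumours. B2mKO and WT tumours overlapped and Jak1KO tumours stood far below both (4.03 ± 0.23, adjusted p = 5.01e-13). Raet1d, of the same family, was 0.82 ± 0.16 higher, and Clec2d, a ligand of an inhibitory NK receptor, was 1.49 ± 0.31 higher. Ulbp1, also an NKG2D ligand, was the 1 lower gene of 10 tested, with 136 ± 30.0 CPM in B2mKO tumours and 209 ± 11 CPM in Jak1KO tumours (-0.62 ± 0.12, adjusted p = 0.000185).

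T cell markers passed in 1 of 22 cases, where 28.1% of all genes passed, with a median of 0.12. Cd8a, which marks cytotoxic T cells, had 3.19, 3.63, 5.03, 5.05 and 0.523 CPM in B2mKO tumours, 14, 0.396, 2.24, 1.07 and 11.6 CPM in Jak1KO tumours and 2.12 to 13.6 CPM in WT tumours. Jak1KO replicates 1 and 5 were the highest of the mutants, and the lines overlapped (-0.76 ± 0.77, adjusted p = 0.498). Cd3e, a chain of the T cell receptor complex, averaged 1.05 ± 0.515 CPM in B2mKO tumours and 2 ± 1.8 CPM in Jak1KO tumours (-0.94 ± 0.61, adjusted p = 0.263), and Cd4 averaged 1.86 ± 0.414 CPM in B2mKO tumours and 1.55 ± 0.478 CPM in Jak1KO tumours (adjusted p = 0.592). The gene that passed was Thy1, which fibroblasts also carry (0.78 ± 0.30, adjusted p = 0.0477), a call lost without B2mKO replicates 1, 2 or 4 or Jak1KO replicates 2, 3 or 4, with adjusted p up to 0.136. The T cell list summed to 111.4 CPM in Jak1KO replicate 1 and 94.76 CPM in Jak1KO replicate 5, and to 21.77 to 40.63 CPM in the other Jak1KO tumours. In B2mKO tumours it summed to 43.1 to 89.06 CPM.

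Of 20 checkpoint and exhaustion genes, 2 were higher, a share below the 14.8% of all genes, and 6 were without Jak1KO replicate 1. The 2 were Lgals9, which encodes galectin-9 (167 ± 26.3 CPM in B2mKO tumours and 71.8 ± 7.7 CPM in Jak1KO tumours, 1.21 ± 0.14), and Tnfrsf9, the costimulatory receptor 4-1BB (2.29 ± 0.48). Pdcd1, which encodes PD-1, averaged 1.82 ± 1.15 CPM in B2mKO tumours and 3.02 ± 2.79 CPM in Jak1KO tumours (adjusted p = 0.332). Among 7 regulatory T cell genes, Lrrc32 (1.58 ± 0.36) and Il2ra (1.23 ± 0.35) were higher, while Foxp3, the factor that defines these cells, averaged 0.635 ± 0.331 CPM in B2mKO tumours and 0.835 ± 0.147 CPM in Jak1KO tumours (adjusted p = 0.475).

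**Figure D3:**
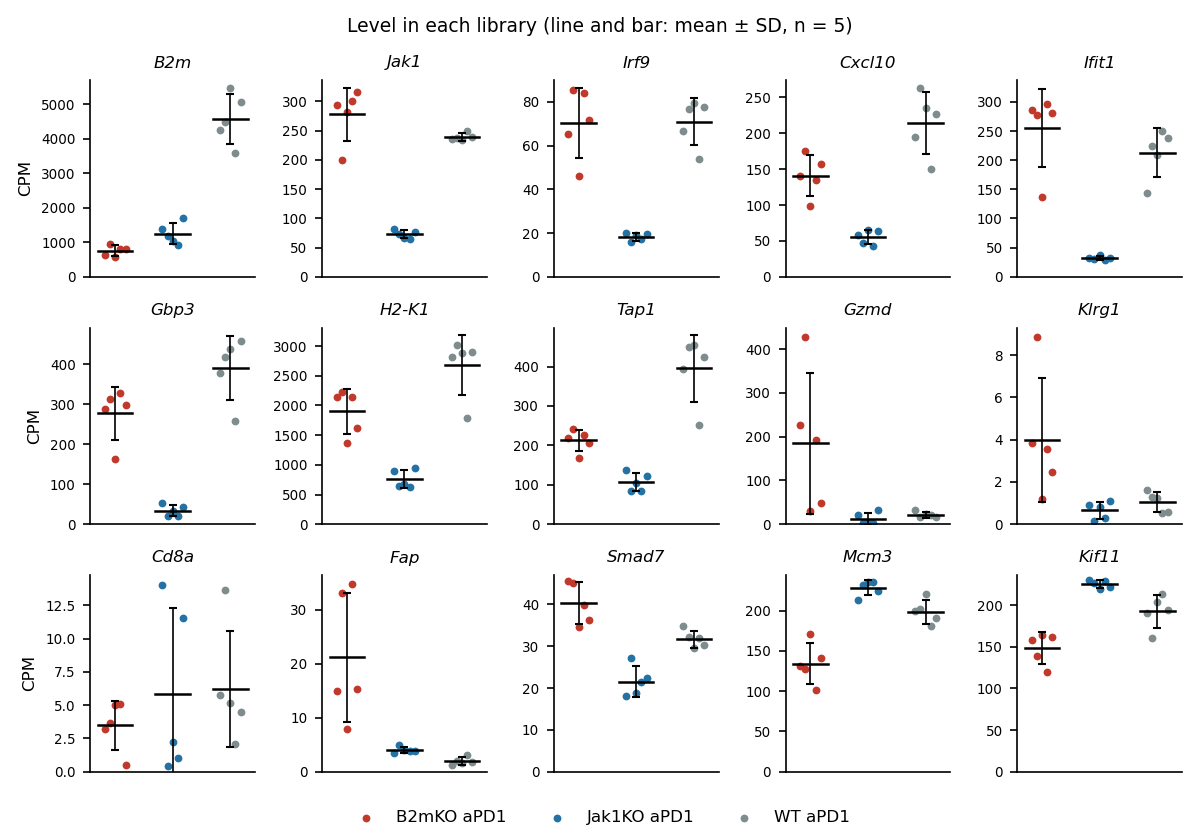
Each panel gives the level of 1 gene in CPM, with 1 point per library of B2mKO aPD1, Jak1KO aPD1 and WT aPD1 and lines for the mean ± SD. Irf9 averaged 70.5 CPM in B2mKO tumours, 18.4 CPM in Jak1KO tumours and 71 CPM in WT tumours, while Fap averaged 21.2 CPM in B2mKO tumours, 4.04 CPM in Jak1KO tumours and 1.93 CPM in WT tumours.

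Of 23 macrophage and monocyte genes, 3 were higher, a share near the 14.8% of all genes, and 0 without B2mKO replicate 2 or 1 without B2mKO replicate 5 or any 1 of Jak1KO replicates 2, 3 and 4. The 3 were the monocyte receptor Ccr2 (0.99 ± 0.33), the scavenger receptor Msr1 (0.49 ± 0.17) and the lipopolysaccharide receptor Cd14 (0.76 ± 0.28). The call of Ccr2 was lost without B2mKO replicate 2 or Jak1KO replicate 2, with adjusted p up to 0.0767. The call of Msr1 was lost without B2mKO replicates 2, 3 or 5 or Jak1KO replicates 2, 3 or 4, with adjusted p up to 0.0899. The call of Cd14 was lost without B2mKO replicates 2, 4 or 5 or Jak1KO replicates 1, 3, 4 or 5, with adjusted p up to 0.104. Mertk, a receptor for dying cells, was lower (-0.49 ± 0.12). The defining gene Adgre1 averaged 197 ± 36 CPM in B2mKO tumours and 159 ± 19.2 CPM in Jak1KO tumours (adjusted p = 0.329), and Csf1r averaged 309.7 ± 89.9 CPM in B2mKO tumours and 231 ± 25.8 CPM in Jak1KO tumours (adjusted p = 0.193). The list summed to 8986 CPM in B2mKO replicate 2, to 5261 to 6401 CPM in the other B2mKO tumours and to 3646 to 5752 CPM in Jak1KO tumours.

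Of 10 neutrophil genes, the gelatinase Mmp9 (0.99 ± 0.19), the histamine-forming Hdc (1.01 ± 0.23) and the receptor Trem1 (0.97 ± 0.28) were higher. Of 7 genes of mast cells, basophils and eosinophils, Gata2 (0.87 ± 0.15) and Kit (0.73 ± 0.27) were higher and the granule proteases Tpsb2 (-1.54 ± 0.51) and Cpa3 (-1.73 ± 0.64) were lower. The call of Kit was lost without B2mKO replicates 4 or 5 or Jak1KO replicates 1, 2, 3, 4 or 5, with adjusted p up to 0.175. The call of Tpsb2 was lost without B2mKO replicates 1, 4 or 5 or Jak1KO replicates 3 or 4, with adjusted p up to 0.0692. The call of Cpa3 was lost without B2mKO replicates 1, 2, 4 or 5 or Jak1KO replicates 1, 3 or 4, with adjusted p up to 0.0989. Of 23 chemokines, 6 were higher and 1 was lower, beside 14.8% and 13.3% of all genes. Cxcl10, an interferon-induced attractant of T and NK cells, had 140.3, 175, 98.7, 134 and 157 CPM in B2mKO tumours, 57.7, 46.5, 64.5, 42.7 and 63.2 CPM in Jak1KO tumours and 150.2 to 263 CPM in WT tumours. The mutants did not overlap (1.36 ± 0.19, adjusted p = 4.78e-06). The neutrophil attractants Cxcl1 (1.78 ± 0.42) and Cxcl5 (3.31 ± 1.07) and the monocyte attractant Ccl9 (1.06 ± 0.29) were also higher, with Cxcl5 lost without B2mKO replicate 4 or Jak1KO replicate 3, with adjusted p up to 0.0532. The eosinophil attractant Ccl11 was lower (-1.14 ± 0.43, adjusted p = 0.0485), a call lost without B2mKO replicates 1, 3, 4 or 5 or Jak1KO replicates 1, 2, 3, 4 or 5, with adjusted p up to 0.121.

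Of the fibroblast genes and collagens that passed, most were higher in B2mKO tumours. Of 18 fibroblast genes, 11 were higher and 3 were lower, beside 14.8% and 13.3% of all genes, with a median of 0.91. Fap, a surface protease of activated fibroblasts, had 15, 33, 8, 34.7 and 15.3 CPM in B2mKO tumours, 3.55, 4.9, 4.08, 3.87 and 3.82 CPM in Jak1KO tumours and 1.21 to 3.16 CPM in WT tumours. The lines did not overlap (2.39 ± 0.33, adjusted p = 3.21e-06). Aspn, a small matrix proteoglycan, averaged 187 ± 80.2 CPM in B2mKO tumours and 44.8 ± 7.96 CPM in Jak1KO tumours (2.06 ± 0.34). The lower genes were Clec3b (-3.24 ± 0.51), Islr (-1.37 ± 0.24) and Pi16, which marks a resting fibroblast state in mice and averaged 1.09 ± 0.982 CPM in B2mKO tumours and 5.01 ± 2.03 CPM in Jak1KO tumours. Which cells of the tumour these genes came from was not tested. Of 23 collagens, 9 were higher and 0 were lower, with a median of 0.67. Col5a2, a fibrillar collagen, averaged 829.9 ± 300.2 CPM in B2mKO tumours and 276 ± 23.8 CPM in Jak1KO tumours (1.59 ± 0.27). Col11a1 was 1.73 ± 0.35 higher, Col18a1 0.97 ± 0.18 and Col8a1 0.64 ± 0.11. Col1a1, the main fibrillar collagen, had 714, 182, 843, 1094 and 717 CPM in B2mKO tumours and 464, 298, 458, 479 and 401 CPM in Jak1KO tumours. B2mKO replicate 2 was the lowest of these 10 libraries, and the adjusted p was 0.176 with it and 0.0427 without it. The collagen list summed to 13180 CPM in that library, to 31000 to 36760 CPM in the other B2mKO tumours and to 18050 to 19530 CPM in Jak1KO tumours.

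Of 27 TGF-beta ligands and targets, 15 were higher and 1 was lower, beside 14.8% and 13.3% of all genes, with a median of 0.54. Smad7, the inhibitory SMAD that the pathway induces, had 45.6, 45.2, 34.5, 39.7 and 36.3 CPM in B2mKO tumours, 18, 27.2, 18.8, 21.4 and 22.3 CPM in Jak1KO tumours and 29.6 to 34.7 CPM in WT tumours. The mutants did not overlap, and the WT mean lay between them (0.90 ± 0.12, adjusted p = 1.12e-06). Skil, another feedback inhibitor, was 0.65 ± 0.08 higher, Id3 1.85 ± 0.24 and the cell cycle inhibitor Cdkn2b 0.99 ± 0.16. The ligand Tgfb1 averaged 84.8 ± 9.49 CPM in B2mKO tumours and 77.9 ± 4.57 CPM in Jak1KO tumours (0.12 ± 0.10, adjusted p = 0.378). Ccn2, a matricellular target, was the lower gene (-1.19 ± 0.37, adjusted p = 0.0179), a call lost without B2mKO replicate 1 or Jak1KO replicates 1 or 3, with adjusted p up to 0.0713. Of 19 endothelial genes, 8 were higher, where 14.8% of all genes were, and 0 were lower, with a median of 0.71. In 2 of the 19 the lines did not overlap. Under IgG1, 2 of the endothelial genes were higher, with a median of 0.43. The list of TGF-beta genes summed to 7522 CPM in B2mKO replicate 2, to 22620 to 29470 CPM in the other B2mKO tumours and to 10430 to 13340 CPM in Jak1KO tumours. The endothelial genes included the junction genes Cldn5 (2.18 ± 0.35) and Pecam1 (0.74 ± 0.18), Mmrn2 (0.73 ± 0.18) and Emcn (0.91 ± 0.25).

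In protease and complement lists more members were higher than lower, except among ADAM and ADAMTS proteases. Of 21 matrix metalloproteinases and inhibitors, 9 were higher and 1 was lower, with a median of 0.64. Mmp2, a gelatinase, had 416, 203, 319, 493 and 367 CPM in B2mKO tumours, 141, 168, 153, 169 and 156 CPM in Jak1KO tumours and 191 to 269 CPM in WT tumours. The mutants did not overlap (1.19 ± 0.22, adjusted p = 0.000131). Mmp28 was 2.59 ± 0.34 higher, and the inhibitors Timp1 and Reck were 1.07 ± 0.14 and 0.85 ± 0.14 higher. Mmp16 was lower (-0.50 ± 0.16), a call lost without B2mKO replicate 2 or Jak1KO replicates 2 or 4, with adjusted p up to 0.0686. Of 23 ADAM and ADAMTS proteases, 3 were higher and 3 were lower, near the 14.8% and 13.3% of all genes, with 6 higher without B2mKO replicate 2. The proteoglycan-cleaving Adamts1 averaged 68.3 ± 23.2 CPM in B2mKO tumours, 195 ± 21.9 CPM in Jak1KO tumours and 71.9 ± 14 CPM in WT tumours (-1.51 ± 0.22). Adamts5 was lower too (-0.82 ± 0.17), while Adamts4 (0.93 ± 0.19) and Adamts12 (0.87 ± 0.23) were higher.

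Of 18 cathepsins and related genes, 8 were higher and 0 were lower, with a median of 0.60. The lysosomal Ctso was 1.58 ± 0.19 higher, Ctsa 0.55 ± 0.11 and Ctsz 0.47 ± 0.10. Ctsg, a granule protease of neutrophils and mast cells, had 3.89, 5.2, 0.39, 4.28 and 0.393 CPM in B2mKO tumours and 0.428, 0.0989, 0, 0.0969 and 0.825 CPM in Jak1KO tumours. B2mKO replicates 1, 2 and 4 were high and the other 2 lay within the Jak1KO range (3.23 ± 0.85, adjusted p = 0.00467). Of 18 genes of the plasminogen system and serpins, 5 were higher and 1 was lower, beside 14.8% and 13.3% of all genes. Plat, the tissue plasminogen activator, was 1.40 ± 0.16 higher, the granzyme B inhibitor Serpinb9 0.75 ± 0.20, Serpinb8 1.33 ± 0.21 and Serpinf1 0.43 ± 0.12. Serpina3f was lower (-1.88 ± 0.56, adjusted p = 0.0118), a call lost without Jak1KO replicate 1, with adjusted p up to 0.0509, and 3 members were lower without B2mKO replicate 2. Of 19 complement genes, 7 were higher and 0 were lower, with a median of 0.54. They included the first-step proteases C1ra (1.85 ± 0.26) and C1s1 (1.84 ± 0.36) and the regulator Cd55 (2.58 ± 0.49).

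The genes of mitosis and DNA replication that passed were lower in B2mKO tumours, where 13.3% of all genes were. Of 25 mitosis genes, 15 were lower and 0 were higher, with a median of -0.41. Kif11, the motor that separates the spindle poles, had 158, 139, 164, 119.9 and 162 CPM in B2mKO tumours, 231, 227, 219.9, 229 and 221 CPM in Jak1KO tumours and 160.2 to 214 CPM in WT tumours. The mutants did not overlap (-0.60 ± 0.09, adjusted p = 1.4e-05). Prc1 (-0.44 ± 0.08), Aurkb (-0.51 ± 0.11) and Tpx2 (-0.56 ± 0.13), which build or control the spindle, were also lower. Mki67, the common proliferation marker, had 409, 63.2, 449, 289 and 403 CPM in B2mKO tumours and 521, 542, 545, 495 and 427 CPM in Jak1KO tumours. B2mKO replicate 2 was far below the rest (-0.65 ± 0.35, adjusted p = 0.173), and without it the difference was -0.36 with adjusted p = 0.364. Of 25 DNA replication genes, 14 were lower and 0 were higher, with a median of -0.39, and 1 was higher without B2mKO replicate 4. Mcm3, a subunit of the replicative helicase, had 131, 127, 171, 102 and 141 CPM in B2mKO tumours, 214, 232, 235, 235 and 224 CPM in Jak1KO tumours and 180.4 to 219.9 CPM in WT tumours. B2mKO tumours lay below both other lines (-0.76 ± 0.12, adjusted p = 1.99e-05). Mcm4 (-0.74 ± 0.12), Mcm10 (-0.56 ± 0.11) and the polymerase subunit Pola1 (-0.71 ± 0.15) were lower too.

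Stress genes went both ways. Of 26 genes of the unfolded protein and integrated stress responses, 11 were higher and 4 were lower, beside 14.8% and 13.3% of all genes. The higher ones were factors of protein folding and degradation in the endoplasmic reticulum and their regulator Xbp1 (0.77 ± 0.11). Dnajc3, a co-chaperone, averaged 151 ± 16.2 CPM in B2mKO tumours and 86.1 ± 3.01 CPM in Jak1KO tumours (0.81 ± 0.08, adjusted p = 5.49e-09), and Edem1 (0.65 ± 0.07) and Pdia4 (0.75 ± 0.08) were also higher. The lower ones were Shmt2 (-0.74 ± 0.14) and Psat1 (-0.83 ± 0.19), enzymes of serine and folate metabolism, the lipoprotein receptor Vldlr (-1.20 ± 0.25) and the pseudokinase Trib3 (-0.82 ± 0.27), the last lost without B2mKO replicates 1, 4 or 5 or Jak1KO replicate 2, with adjusted p up to 0.076. Of 16 targets of NRF2, which governs the response to oxidative stress, 7 were lower and 0 were higher, with a median of -0.31. They included G6pdx (-0.58 ± 0.10), Cbr1 (-0.75 ± 0.16), Gstm1 (-0.93 ± 0.20) and Gsta4 (-1.70 ± 0.39).

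Wnt6, a secreted WNT ligand, averaged 21.4 ± 9.04 CPM in B2mKO tumours, 1.75 ± 0.46 CPM in Jak1KO tumours and 9.58 ± 2.55 CPM in WT tumours (3.61 ± 0.40), while the antagonist Dkk2 was lower (-1.37 ± 0.21). Of 14 genes of that list, 4 were higher and 2 were lower, beside 14.8% and 13.3% of all genes. The higher count was 2 without Jak1KO replicate 3 or 4, and the lower count was 1 without B2mKO replicate 2. The mesenchymal regulators Twist1 (1.06 ± 0.12) and Snai2 (-1.02 ± 0.13) went opposite ways. Peg3, an imprinted zinc finger gene, had 2.11, 0.294, 4, 2.19 and 1.88 CPM in B2mKO tumours, 10.1, 9.99, 15.2, 11.6 and 7.3 CPM in Jak1KO tumours and 0.905 to 2.87 CPM in WT tumours. B2mKO and WT tumours overlapped, and every Jak1KO library stood above both (-2.37 ± 0.41, adjusted p = 6.88e-05). Of 28 Hox genes, 5 were higher, among them Hoxb13 (1.54 ± 0.20), and 4 were lower, among them Hoxc10 (-0.71 ± 0.08), shares near the 14.8% higher and 13.3% lower of all genes.

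Some markers of epithelium and muscle were high in 1 library. Only 8 of 21 epithelial genes had counts enough to test, and 3 were higher, where 14.8% of all genes were, with a median of 2.57. Under IgG1, 1 epithelial gene was higher and the median was -0.79. Whether the list differs between antibodies was not tested. Krt8, a keratin of simple epithelia, had 0.054, 4.26, 0.0488, 0.0972 and 0.0436 CPM in B2mKO tumours and at most 0.0495 CPM in Jak1KO tumours. The reads came almost wholly from B2mKO replicate 2 (5.23 ± 1.96, adjusted p = 0.046) and the call was lost without B2mKO replicate 2 or Jak1KO replicates 1, 2, 3, 4 or 5, with adjusted p up to 0.707, the value without B2mKO replicate 2. Krt18, its partner, had 3.23 CPM in that library. Cdh1, the epithelial adhesion gene, was 1.38 ± 0.31 higher. Of 16 muscle genes, 3 were lower, where 13.3% of all genes were, and 0 were higher. Myh4, a muscle myosin, had 0, 0.049, 3.81, 1.17 and 0.0872 CPM in B2mKO tumours and 236, 0.0989, 2.81, 5.67 and 0.217 CPM in Jak1KO tumours. Jak1KO replicate 1 was far above all others, and the lower count was 0 without it, 0 without B2mKO replicate 5, 6 without B2mKO replicate 3 and 1 without B2mKO replicate 1, 2 or 4.

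The 12 largest rises and the 12 largest falls among well expressed genes held 0 members of the interferon lists. Vstm5, a membrane protein of the immunoglobulin superfamily, had 10.5, 18.4, 10.1, 7.97 and 10.5 CPM in B2mKO tumours, at most 0.145 CPM in Jak1KO tumours and 0.354 to 1.14 CPM in WT tumours. Every B2mKO library stood above both other lines (7.81 ± 0.55, adjusted p = 2.95e-11). Pde1a, a phosphodiesterase that calmodulin activates, had 22.8, 32.4, 26.1, 28.7 and 27.1 CPM in B2mKO tumours, 0.899, 0.693, 0.789, 0.872 and 1.22 CPM in Jak1KO tumours and 1.87 to 2.99 CPM in WT tumours. It too was above both other lines (4.93 ± 0.26, adjusted p = 1.39e-13), as were Inmt, a methyltransferase (5.68 ± 0.63), and the noncoding Lncenc1 (4.07 ± 0.36). In other genes Jak1KO was the line apart. Glrb, a glycine receptor subunit, averaged 9.64 ± 2.03 CPM in B2mKO tumours, 0.196 ± 0.139 CPM in Jak1KO tumours and 5.84 ± 0.878 CPM in WT tumours (5.61 ± 0.38, adjusted p = 1.39e-11). Tex13b averaged 6.09 ± 0.806 CPM in B2mKO tumours, 0.223 ± 0.183 CPM in Jak1KO tumours and 7.49 ± 2.07 CPM in WT tumours (4.72 ± 0.49, adjusted p = 2.73e-08). Further large rises were the olfactory receptor gene Olfr810 (5.54 ± 0.59), the cadherin Cdh19 (4.71 ± 0.33), the bicarbonate transporter Slc4a5 (4.64 ± 0.27), the cardiac troponin Tnnt2 (4.09 ± 0.37) and Fcrl6 (3.96 ± 0.77). Among the smallest p-values stood Angpt1, a ligand of the endothelial receptor TIE2 (3.73 ± 0.24), and the amino acid transporter Slc36a4 (1.61 ± 0.09).

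Among the falls, Tmprss11g, a serine protease of the membrane, had 0 counts in all 5 B2mKO libraries, 5.39, 5.84, 5.57, 5.18 and 6.51 CPM in Jak1KO tumours and 3.72 to 5.95 CPM in WT tumours. With a floor of 3 counts over the group it was at least 196-fold lower. Olfr139, an olfactory receptor gene, had 0 counts in B2mKO tumours and 813 in Jak1KO tumours, at least 253-fold lower. Bnc1, a zinc finger protein, had at most 0.342 CPM in B2mKO tumours, 15.3, 6.73, 9.51, 11.4 and 11.7 CPM in Jak1KO tumours and 4.57 to 9.19 CPM in WT tumours. B2mKO was the line apart (-6.60 ± 0.49, adjusted p = 5.61e-11). Fndc3c1 (-6.83 ± 0.51), Pld5 (-3.95 ± 0.22), the thyroid hormone deiodinase Dio2 (-3.59 ± 0.21), the natriuretic peptide receptor Npr3 (-3.58 ± 0.24), the endocytic receptor Lrp2 (-2.99 ± 0.42), Gstp2 (-2.81 ± 0.33) and the tight junction gene Cldn1 (-2.75 ± 0.28) were also lower. Jak1KO stood above both other lines for the laminin chain Lama2, with 1.03, 0.294, 2.83, 2.67 and 2.88 CPM in B2mKO tumours, 5.95, 14.3, 29.4, 24.5 and 12 CPM in Jak1KO tumours and 0.354 to 1.08 CPM in WT tumours (-3.14 ± 0.56, adjusted p = 9.77e-05). The kinase Prkd3 was lower with a small spread (-1.11 ± 0.08, adjusted p = 2.03e-11).

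Some genes were near absent from 1 line. Of 15505 tested genes, 20 had at most 3 counts over the 5 Jak1KO libraries and a positive log2 fold change, and 15 of them passed the threshold. On the other side, 16 had at most 3 counts over the 5 B2mKO libraries and a negative log2 fold change, and 12 of them passed. Strc, which encodes stereocilin of the inner ear, had 301 counts in B2mKO tumours and 1 in Jak1KO tumours, a ratio of 322 with an exact 95% interval of 57.3 to 12800 for counting error only. The file headers show counting without the paired-end option, so both reads of a fragment may have been counted. That interval and the bounds from a floor of 3 counts treat counts as independent, which is not known here. Strc averaged 14.8 ± 3.37 CPM in WT tumours. In B2mKO tumours Sall1 had 89 counts, Olfr768 83, Rtl3 77 and Bglap2 72. In Jak1KO tumours Sall1 and Rtl3 had 2 counts each, and Olfr768 and Bglap2 had 1 each. Among the genes near absent from B2mKO tumours, Ptprn2 had 2 counts there and 336 in Jak1KO tumours. The sodium channel gene Scn8a had 2 in B2mKO tumours and 170 in Jak1KO tumours, and Fam19a5 had 1 in B2mKO tumours and 64 in Jak1KO tumours. Zfp616 had 0 counts in B2mKO tumours and 104 in Jak1KO tumours, at least 32.4-fold lower.

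Called genes were unevenly placed along the genome. On chromosome 19, 4.91% of 529 genes were higher in B2mKO tumours and 36.7% were lower, with a median difference of -0.28. On chromosome 15, 30.1% of 617 genes were lower. Chromosomes 3 and 6 leaned the other way, with 32.4% of 791 and 32.1% of 813 genes higher and medians of 0.25 and 0.27. In windows of 20 Mb on GRCm38, the higher share was 53.3% of 135 genes at chr4:40000001-60000000, and the lower share was 41.7% of 144 genes at chr12:100000001-120000000. The libraries with IgG1 gave medians of -0.30 on chromosome 19, 0.27 on chromosome 3 and 0.25 on chromosome 6. Of the higher interferon genes with a printed promoter, Ifit1 and Ifit3b lie on chromosome 19, Gbp7 on chromosome 3 and Irgm2 on chromosome 11. The part of gene position or copy number in these differences was not tested.

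**Figure D4:**
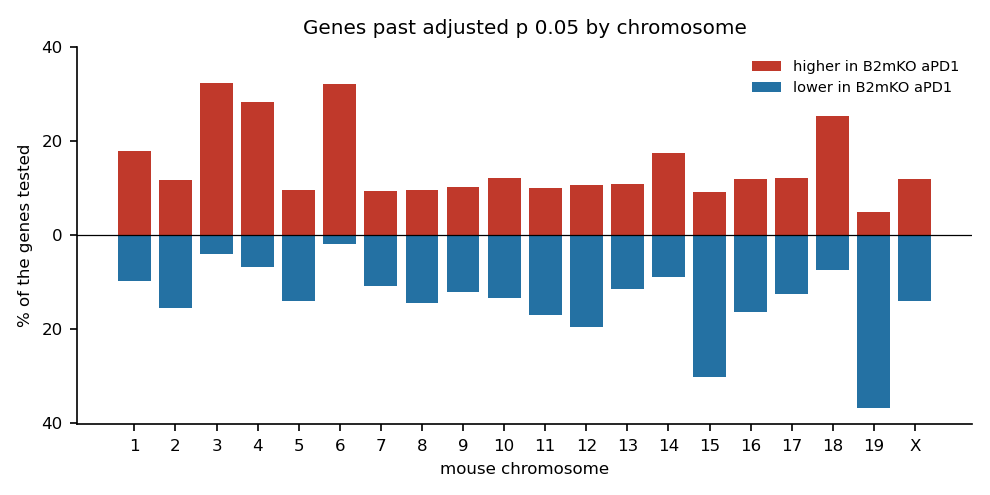
For each mouse chromosome, bars give the percentage of tested genes that were higher or lower in B2mKO aPD1 than in Jak1KO aPD1. Chromosomes 3 and 6 have 32.4% and 32.1% of genes higher, and chromosomes 15 and 19 have 30.1% and 36.7% lower.

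The same lines under IgG1, in libraries that the aPD1 comparison does not use, gave 4362 of 15505 genes past the threshold (28.1%), 2217 higher (14.3%) and 2145 lower (13.8%). Both totals rest on a spread estimated over all 30 libraries. Fits of only the compared groups gave 3328 genes under aPD1 and 6238 under IgG1. Of the genes higher in B2mKO tumours, 1706 were shared, 74.2% of the aPD1 set and 77% of the IgG1 set. Of the lower genes, 1546 were shared, 75% of the aPD1 set and 72.1% of the IgG1 set. Of the genes called under aPD1, 0 were called in the opposite direction under IgG1. The type I interferon list had a median of 2.11 under aPD1 and 2.54 under IgG1, and the interferon gamma list 1.26 under aPD1 and 1.63 under IgG1. Ifit1 under IgG1 averaged 291 ± 68.2 CPM in B2mKO tumours and 28.5 ± 2.63 CPM in Jak1KO tumours, and H2-K1 1931 ± 248 CPM in B2mKO tumours and 749 ± 29.1 CPM in Jak1KO tumours. Of the MHC class II genes, 4 of 10 were lower in B2mKO tumours under IgG1, where none passed under aPD1, and whether this count differs between antibodies was not tested. The muscle genes, high in Jak1KO aPD1 replicate 1, had a median of -2.78 under aPD1, -0.36 under aPD1 without that library and 0.31 under IgG1. Gzmd differed by 3.83 under aPD1 and 4.49 under IgG1, and Ifng by -2.73 under aPD1 and -3.46 under IgG1.

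Whether the line difference itself depended on the antibody was tested as an interaction, the difference under aPD1 minus that under IgG1. It passed for 0 of 15505 genes (0%) by edgeR's quasi-likelihood test, with a smallest adjusted p of 0.995. An unadjusted p under 0.05 was reached by 292 genes, a smaller share than the 0.05 that evenly spread p-values would give. These p-values thus ran high, which may limit what the test could detect. DESeq2 and limma voom also called 0 genes, with 332 and 274 at that unadjusted level. The smallest unadjusted p-values belonged to Arhgap8 (-1.98 ± 0.50), Heatr9 (-1.49 ± 0.38), Unc93a (-2.96 ± 0.78), Gria4 (1.08 ± 0.29), Pck1 (8.26 ± 2.23) and Tmem176a (1.31 ± 0.35). Of these, Pck1 averaged 0.391 ± 0.633 CPM in B2mKO and 0.0435 ± 0.0537 CPM in Jak1KO tumours under aPD1, close to 0. An interaction that misses the threshold does not show that the line difference was the same with both antibodies.

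**Figure D5:**
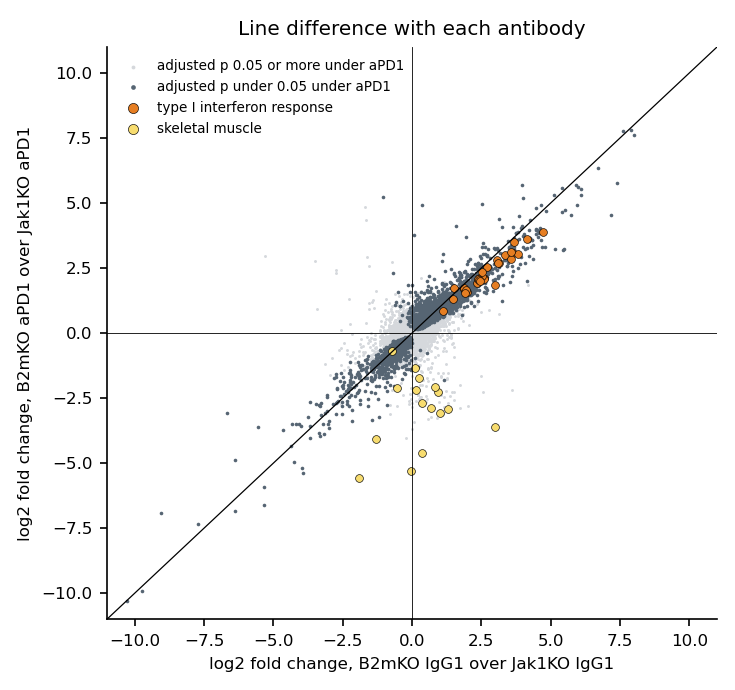
Each point is a gene, with the log2 fold change of B2mKO over Jak1KO under IgG1 on the x axis and under aPD1 on the y axis. The diagonal marks equal differences, and colours mark 2 lists. The type I interferon genes have medians of 2.11 under aPD1 and 2.54 under IgG1, and the muscle genes -2.78 under aPD1, or -0.36 without Jak1KO aPD1 replicate 1, and 0.31 under IgG1.

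In the remaining lists, beside 14.8% higher and 13.3% lower over all genes, there were 0 higher and 1 lower of 14 dendritic cell genes, 1 higher and 0 lower of 5 B and plasma cell genes and 2 higher and 0 lower of 12 pericyte and smooth muscle genes. There were also 0 higher and 0 lower of 8 adipocyte genes, 1 higher and 1 lower of 4 keratinocyte genes and 1 higher and 2 lower of 26 hypoxia and glycolysis genes. Last came 0 higher and 1 lower of 19 cholesterol synthesis genes, 4 higher and 1 lower of 17 p53 target genes and 0 higher and 0 lower of 7 mitochondrially encoded genes. The keratinocyte list summed to 11.42 to 34.43 CPM in B2mKO tumours and to 9.89 to 14.77 CPM in Jak1KO tumours.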

How the data were processed

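RNA of mouse tumours was sequenced as paired ends in 30 TruSeq RNA libraries, per the labels' protocols. The deposited files hold whole-number counts per gene, which the authors made with featureCounts 2.0.0 on the Ensembl release 99 annotation of GRCm38 with default options, per the file headers. Under those options strand is not used and reads that map to several places are left out, so close copies lose reads and overlapping or antisense genes cannot be separated. The submitters' processing notes also name FastQC 0.11.2, STAR 2.5.2a, Cufflinks 2.2.1 and edgeR 3.24.3, with no role given. The header of the WT aPD1 replicate 2 file writes its library name in another form than the label, and the label was followed.

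From these counts, edgeR 4.0.16 in R 4.3.3 fitted quasi-likelihood models with TMM factors (0.981 to 1.04 in the 10 compared libraries) to all 30 libraries, with 1 mean for each of the 6 groups. Its filter on low counts (minimum count 10, minimum total 15) kept 15505 of 55471 genes. P-values were adjusted by Benjamini-Hochberg over all genes tested, with a threshold of 0.05. Symbols were missing for 327 identifiers, 0.047% of counts. CPM used the scaled library totals. Gene lists (44, with 864 distinct genes, 4 of them without a match) are described by counts and medians. The scripts were tested on simulated data. Alternatives were DESeq2 1.42.0, limma 3.58.1 voom, other size factors and filters, the compared groups alone, a replicate block and leaving out libraries. Promoter windows came from RefSeq.

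Named genes were B2m and Jak1, the 12 largest rises and falls among genes with at least 5 CPM in the higher line and no overlap between lines, the 6 smallest p-values in each direction, the 6 smallest interaction p-values, genes with at most 3 counts in 1 line, and up to 4 members of each list that passed with up to 3 defining ones that did not. Irf7, Ifit3b, H2-K1, H2-D1, Ifng, Ccl11, Shmt2, Vldlr, Psat1, Trib3, Pi16, Ccn2, Mmp16, Serpina3f and Stat5b fall outside that rule and were named after their values were seen. Some genes that the rule names are not reported here. The compared groups and the lists were chosen with earlier results of these data known.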

Additional observations from a re-analysis of the deposited data

Results flagged for a closer look

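Among 381 groups of 5 libraries, each a named gene in 1 line under aPD1, 41 held a library that stood apart, its gap to the nearest other exceeding 0.71 of the group's range. Chance gives this in about 1 in 20 groups of normally distributed values, and whether these CPM were so distributed was not tested. That rate does not hold for the 6 of these 41 in which the other 4 libraries were all at 0. B2mKO aPD1 replicate 2 stood above the other 4 libraries of its group for Vstm5 at 18.4 CPM, Inmt at 28.9 CPM, Krt8 at 4.26 CPM, Ccl9 at 171 CPM, Psmb9 at 153 CPM, Epcam at 3.63 CPM, Hoxa10 at 41.5 CPM, Clec2d at 109 CPM, Plat at 168 CPM, Serpinb9 at 96.8 CPM, Xbp1 at 233 CPM, Krt18 at 3.23 CPM and Trib3 at 139 CPM. B2mKO aPD1 replicate 2 stood below the other 4 libraries of its group for Col11a1 at 9.95 CPM and Stat5b at 52.3 CPM. B2mKO aPD1 replicate 3 stood above the other 4 libraries of its group for Bnc1 at 0.342 CPM, Fam19a5 at 0.0488 CPM, G6pdx at 72.2 CPM, Pvalb at 0.488 CPM and Ckm at 1.37 CPM. B2mKO aPD1 replicate 3 stood below the other 4 libraries of its group for Gbp3 at 162 CPM, Irgm2 at 118 CPM, Twist1 at 30.7 CPM, Ifit1 at 137 CPM, Herc6 at 48 CPM and Ifi44 at 63.5 CPM. B2mKO aPD1 replicate 4 stood above the other 4 libraries of its group for Kit at 9.77 CPM. B2mKO aPD1 replicate 5 stood above the other 4 libraries of its group for Ptprn2 at 0.0872 CPM. Jak1KO aPD1 replicate 1 stood above the other 4 libraries of its group for Olfr768 at 0.0428 CPM, Bglap2 at 0.0428 CPM, Prc1 at 128 CPM, Eno3 at 44.4 CPM, Myh4 at 236 CPM, Pvalb at 19 CPM, Dnajc3 at 91.4 CPM and Ckm at 38.1 CPM. Jak1KO aPD1 replicate 2 stood above the other 4 libraries of its group for Glrb at 0.445 CPM and Strc at 0.0495 CPM. Jak1KO aPD1 replicate 3 stood above the other 4 libraries of its group for Snai1 at 87 CPM and Herc6 at 21.6 CPM. Jak1KO aPD1 replicate 5 stood above the other 4 libraries of its group for Ccl9 at 44.6 CPM. Why these libraries stood apart was not tested.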

How the results depend on the processing

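The number of genes that differed between the lines under aPD1 was 4366 with DESeq2's size factors, 3573 with every gene that had a count, 4268 with a stricter filter, 4754 with DESeq2, 4429 with limma voom and 3328 with only the compared groups. With only its own compared groups, the IgG1 comparison gave 6238 genes. Leaving out single libraries gave 3636 to 4566 genes under aPD1 and 3604 to 4338 under IgG1. Without WT IgG1 replicate 3 and B2mKO aPD1 replicate 2 together it was 6002 under aPD1 and 6391 under IgG1, of which 3392 were higher in B2mKO, above the 2217 of all libraries; the cause was not tested. Without B2mKO aPD1 replicate 2 and Jak1KO aPD1 replicate 1, a choice made after seeing the data, it was 4238. No interaction passed in any of these. Same-numbered libraries of the lines correlated at -0.297 to 0.109 under aPD1, and differently numbered ones at -0.329 to 0.402. These overlapping ranges cannot decide whether a replicate number marks a shared cage or day, and the labels do not say. With a replicate block the counts were 4190 under aPD1, 4234 under IgG1 and 0 for the interaction. In the fit of the compared groups alone, 2 NK cell genes, 6 macrophage genes and 1 epithelial gene were higher and 0 muscle genes were lower. Without WT IgG1 replicate 3 and B2mKO aPD1 replicate 2, 14 endothelial genes, 16 collagens and 8 ADAM proteases were higher. DESeq2 gave 7 lower Hox genes. Krt18 differed by -0.11 without those libraries, -0.41 without B2mKO aPD1 replicate 2 and Jak1KO aPD1 replicate 1, and from -0.12 without B2mKO aPD1 replicate 2 to 5.30 without Jak1KO aPD1 replicate 4. Of 192 named genes, 177 passed the threshold. The stricter filter left 7 named genes without a value and the fit of the compared groups 12. Of the 165 that passed and had a value under all 19 alternatives, 145 kept their call in each. Depth limits the genes with a few counts per library, such as Ifng, Krt8 and Krt18.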
